A study of Mus musculus with 32 samples.

Results

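The genes of MHC class II presentation were followed in mouse liver tumours. They are 7 of the 54446 genes in the count tables: *H2-Aa*, *H2-Ab1*, *H2-Eb1*, *H2-DMa*, *H2-DMb1*, *Cd74* and *Ciita*. All 7 passed the filter on low counts in every fit. MHC class II molecules are pairs of an alpha and a beta chain that carry peptides from endosomes to the cell surface, where CD4+ T cells read them. *H2-Aa* and *H2-Ab1* encode the chains of the I-A molecule, and *H2-Eb1* encodes the beta chain of I-E. *Cd74* encodes the invariant chain, which fills the peptide groove of new class II molecules and guides them to endosomes. *H2-DMa* and *H2-DMb1* encode H2-DM, which helps to exchange the last piece of the invariant chain for a peptide. *Ciita* encodes the coactivator that switches the other 6 genes on. Dendritic cells, B cells and activated macrophages make class II molecules constitutively or readily, and interferon gamma can induce *Ciita* in many other cells.

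BNL-MEA is a line of mouse liver cancer cells. It was implanted orthotopically into BALB/c mice, which keep an intact immune system, and the RNA of whole tumour tissue was sequenced after treatment. All 32 libraries therefore share the tumour line and the host strain, and each experiment had its own vehicle mice. In the dose experiment, 4 vehicle tumours were set against 3 with regorafenib at 5 mg/kg/day (low dose) and 3 at 20 mg/kg/day (high dose). Regorafenib is taken by mouth and blocks the VEGF receptors as well as other kinases. In the DC-101 experiment, 4 vehicle tumours were set against 3 with low dose regorafenib and 3 with DC-101, an antibody that blocks VEGFR2 of the mouse (800 ug each on days 1, 3 and 5). In the anti-PD1 experiment, vehicle, low dose regorafenib, an antibody against PD1 and the combination of both had 3 tumours each. PD1 is an inhibitory receptor of T cells. In bulk tumour RNA, fewer cells of a type and less RNA per cell cannot be told apart. The sources used here do not say that the libraries of a group came from separate mice in every case, so the p-values measure the spread between these libraries. The libraries held between 16.8 M and 27.7 M counts each. Hepatocyte transcripts differed widely between libraries: 12 hepatocyte markers summed to between 86.2 and 102000 CPM (counts scaled to a library size of 1 M), the lowest in a vehicle tumour of the DC-101 experiment and the highest in a high dose tumour.

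The promoters of the class II genes are built on a shared layout, in which an X box and, further down, a Y box are bound by the factors that recruit CIITA. The windows at hand were searched for the cores of that layout, which not all of them held. RefSeq windows on GRCm38.p6, from 250 bases before to 50 bases after a RefSeq start of the gene, were at hand for *H2-Aa*, *H2-Eb1*, *H2-DMa* (2 starts) and *H2-DMb1*. An X-box core (GNAAC) was searched together with a Y-box core (GATTGG) that began 20 to 45 bases further down, on both strands. These cores were chosen after the promoters had been seen. The pair was in the windows of *H2-Aa* (chr17:34287774-34288073, minus strand), *H2-Eb1* (chr17:34305617-34305916, plus strand) and *H2-DMb1* (chr17:34152941-34153240, plus strand), printed here 5′ to 3′ with both cores in capitals.
H2-Aa: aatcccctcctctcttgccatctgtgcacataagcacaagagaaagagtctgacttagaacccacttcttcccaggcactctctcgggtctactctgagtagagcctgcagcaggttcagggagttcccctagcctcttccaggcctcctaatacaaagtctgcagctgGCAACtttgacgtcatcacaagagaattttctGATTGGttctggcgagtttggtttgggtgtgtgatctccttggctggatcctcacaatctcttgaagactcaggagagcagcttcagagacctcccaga
H2-Eb1: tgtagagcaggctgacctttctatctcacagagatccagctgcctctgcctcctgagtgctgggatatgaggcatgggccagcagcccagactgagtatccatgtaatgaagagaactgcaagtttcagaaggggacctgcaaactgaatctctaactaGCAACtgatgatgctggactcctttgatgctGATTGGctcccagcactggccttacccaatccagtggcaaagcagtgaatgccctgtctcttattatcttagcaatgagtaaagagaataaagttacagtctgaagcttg
H2-DMb1: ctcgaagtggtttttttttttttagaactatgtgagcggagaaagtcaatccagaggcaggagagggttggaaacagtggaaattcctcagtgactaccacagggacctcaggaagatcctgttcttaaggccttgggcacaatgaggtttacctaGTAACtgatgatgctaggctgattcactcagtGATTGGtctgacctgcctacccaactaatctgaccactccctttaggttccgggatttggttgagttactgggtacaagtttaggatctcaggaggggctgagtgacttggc
The starts of the cores lay 32 bases apart in *H2-Aa* and *H2-DMb1* and 31 bases apart in *H2-Eb1*. The pair was also in the windows of *H2-Eb2* (31 bases), *H2-Oa* (32 bases) and *H2-Ob* (29 bases), which encode further class II chains. It was in neither window of *H2-DMa*, nor in that of *H2-DMb2*, which says only that these letters are not there. Both *H2-DMa* windows (from 34122582 and from 34125268) lie inside the Gencode model of the gene, which begins at 34119541. The outermost start of *H2-DMa* was therefore not searched. Of all 32851 windows of this length, 475 (1.45%) held the pair and 5292 (16.1%) held the Y-box core. The 5 class II chain genes among the members lie close together on chromosome 17 (Gencode M21 on GRCm38), from *H2-DMa* (34119541 to 34139101) over *H2-DMb1* (34153072 to 34160230), *H2-Ab1* (34257689 to 34269419) and *H2-Aa* (34282744 to 34287823) to *H2-Eb1* (34305867 to 34316674).

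The members differed in level by orders of magnitude, and their ranking was nearly fixed. *Cd74* and the classical chains were abundant, and *Ciita* was scarce. Per kilobase of exon, so that genes can be set side by side, the 11 vehicle libraries had a lowest, median and highest level of 46.3, 175 and 1260 CPM per kilobase for *Cd74*. *H2-Eb1* had 11.5, 57.3 and 449, *H2-Ab1* 11.6, 44.4 and 344, and *H2-Aa* 9.51, 39.3 and 312 on the same scale. H2-DM was lower, with 6.58, 13.4 and 41.1 for *H2-DMa* and 1.41, 4.62 and 38.8 for *H2-DMb1*. *Ciita*, a transcriptional regulator, was at 0.138, 0.616 and 2.62 CPM per kilobase. In 27 of 32 libraries the order was *Cd74*, *H2-Eb1*, *H2-Ab1*, *H2-Aa*, *H2-DMa*, *H2-DMb1*, *Ciita*. In 4 libraries *H2-Ab1* was above *H2-Eb1*, and in 1 library *H2-DMb1* was above *H2-DMa*. The vehicle ranges of *H2-Eb1*, *H2-Ab1* and *H2-Aa* overlapped, but within a library *H2-Aa* was below both other genes in all 32 libraries. Of the 100-base windows of the *H2-DMb1* transcripts, 11.3% are also in *H2-DMb2*, so reads of these paralogs could be split; the transcripts of the other 6 genes shared no such window with another gene.

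The members varied widely between tumours. *H2-Aa* ran from 36.1 to 2030 CPM over the 32 libraries, a ratio of 56.2, and *H2-Eb1* from 22.3 to 1650 CPM, a ratio of 73.9. *H2-DMa* had the narrowest range, from 19.5 to 220 CPM (11.3-fold), and the other 4 genes spanned 42.8-fold (*Ciita*) to 54.5-fold (*Cd74*). Even *Ciita* was counted in every library, with 26 to 1339 reads, and *H2-DMb1* had at least 54 reads. Counting error is therefore small beside the spread between tumours. On the log2 CPM scale, the SD of *H2-Aa* within a group was 0.59 in the vehicle tumours of the dose experiment, 1.78 in those of the DC-101 experiment and 2.03 in those of the anti-PD1 experiment.

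**Figure D1:**
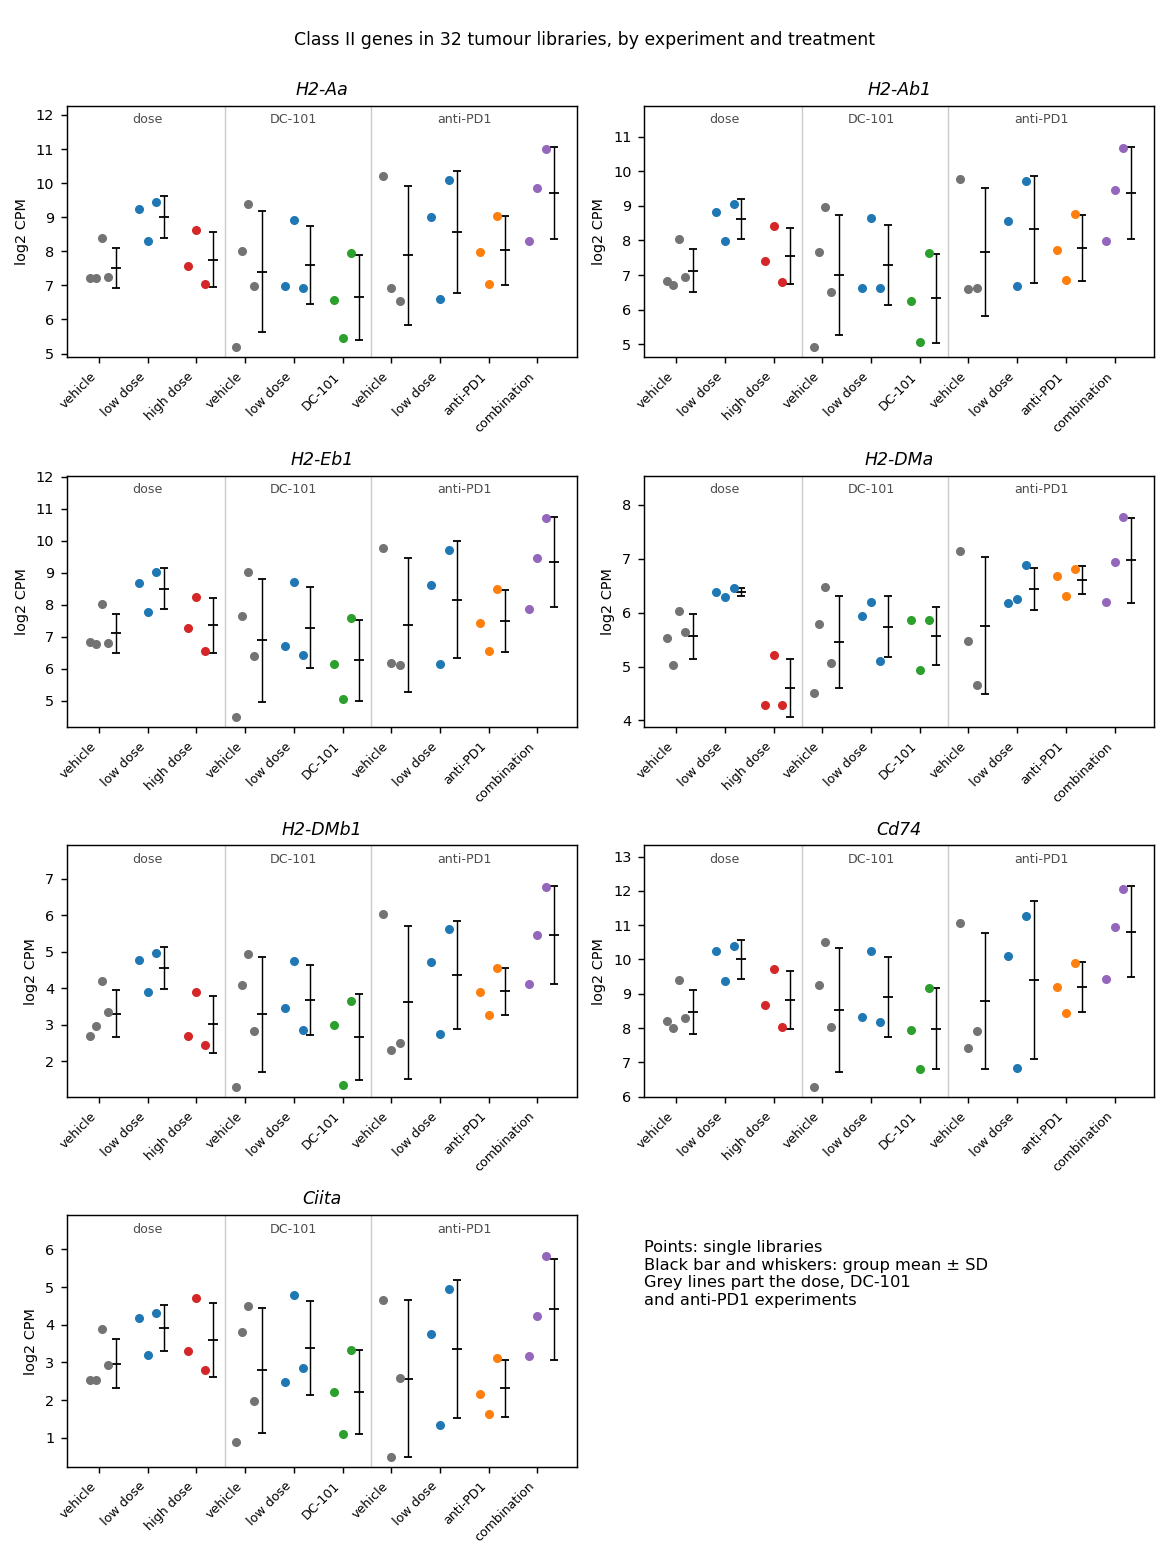
TMM-scaled log2 CPM (y axis) of the 7 class II genes in each library, grouped along the x axis by experiment and treatment. Points are libraries, and the bars are the group mean ± SD. In the dose experiment all 3 low dose points of *H2-DMa* (6.29 to 6.46) lie above the vehicle points (5.02 to 6.03) and all 3 high dose points (4.29 to 5.22) lie below the low dose ones, whereas most other groups overlap. The share of all genes that separate in this way was not counted.

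In the dose experiment, low dose tumours had more RNA of all 7 class II genes than vehicle tumours, but no gene passed the test. *H2-Aa*, the I-A alpha chain, was at 7.22, 7.21, 8.40 and 7.24 log2 CPM in the 4 vehicle tumours and at 9.24, 8.31 and 9.45 in the 3 low dose tumours. Vehicle replicate 3 stood above the other vehicle tumours and within the low dose range. The log2 change was 1.46 ± 0.46 (SE). *H2-Ab1* (1.46 ± 0.46), *H2-Eb1* (1.37 ± 0.47) and *Cd74* (1.48 ± 0.47) had log2 changes of like size (± SE). *H2-DMb1* was higher by 1.20 ± 0.47 and *H2-DMa* by 0.78 ± 0.28 on that scale. *Ciita*, the coactivator, had 2.53, 2.52, 3.89 and 2.92 log2 CPM with vehicle and 4.19, 3.21 and 4.32 with the low dose, a log2 change of 0.90 ± 0.52. For each of the 7 genes, all 3 low dose libraries were above the vehicle mean.

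By edgeR's quasi-likelihood test with Benjamini-Hochberg adjustment over 16525 genes, adjusted p-values of the 7 genes were 0.836 to 0.991. None of all 16525 genes was called (0.0%), while 817 had an unadjusted p under 0.05 and DESeq2 called 85 genes. All members but *Ciita* (6 of 7) were higher at an unadjusted p under 0.05, beside 399 genes (2.41%) of all those tested. The levels of the members moved together from tumour to tumour, so these are not separate findings. With the replicate block, 1 of 7 had an unadjusted p under 0.05. The median log2 change was 1.37 over the 7 genes and 0.00 over all genes tested. Without vehicle replicate 3 all 7 had an unadjusted p under 0.05 and *H2-Aa* had a log2 change of 1.86, and without low dose replicate 3 it was 3 of 7. None of the T cell and macrophage markers was called either (3 of 7 and 5 of 9 were higher at an unadjusted p under 0.05). The 7 T cell markers summed to 6.74 to 15.6 CPM with vehicle and 17.2 to 19.4 CPM with the low dose. The 9 macrophage markers summed to 1520 to 2990 CPM with vehicle and 3510 to 4050 CPM with the low dose. The part of these cells in the class II difference was not tested.

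At the high dose, *H2-DMa* had the lowest log2 change of the 7 genes against both vehicle and the low dose. *H2-DMa*, the alpha chain of the peptide exchange factor, had 5.53, 5.02, 6.03 and 5.64 log2 CPM with vehicle, 6.39, 6.29 and 6.46 with the low dose and 4.29, 5.22 and 4.29 with the high dose. All 3 high dose tumours lay below the low dose ones, and high dose replicate 2 alone lay within the vehicle range. How many of all genes tested separate the dose groups in this way was not counted. The log2 change from low to high dose was -1.71 ± 0.31 (SE), with an adjusted p of 0.0239. It was the only one of the 7 genes that edgeR called in any comparison, while DESeq2 also called *H2-DMb1* between the doses at an adjusted p of 0.0401 (edgeR 1 of 7; 697 of 16525 genes were called in this comparison, 4.22%, and 409, or 2.48%, were called lower). Against vehicle, *H2-DMa* at the high dose was at -0.93 ± 0.29 with an adjusted p of 0.0530, where 2582 genes (15.6%) were called, a count that dropped to between 15 and 83 without any 1 of the vehicle libraries. Its call between the doses was lost with total count scaling (adjusted p = 0.0529), with a replicate block (adjusted p = 0.160), or without any single low dose library (adjusted p = 0.0604 to 0.108).

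The other class II genes at the high dose lay near the vehicle tumours. *H2-Aa* had 7.58, 8.63 and 7.04 log2 CPM at the high dose, so that replicate 2 was above all vehicle tumours and replicate 3 was below them. Its log2 change was 0.29 ± 0.46 against vehicle and -1.17 ± 0.50 against the low dose. Against the low dose, all 7 changes were negative, between -1.71 and -0.15, with a median of -1.10 beside 0.07 over all genes. *H2-Aa*, *H2-DMa* and *H2-DMb1* (3 of 7) had an unadjusted p under 0.05, beside 2148 genes (13.0%) that were lower at that limit. *Ciita* was at 3.29, 4.70 and 2.81 log2 CPM, with a change of -0.15 ± 0.56 from the low dose. Its sign turned to positive without low dose replicate 3, high dose replicate 1 or high dose replicate 3, with a highest value of 0.15. Against vehicle the changes were 0.75 ± 0.52 for *Ciita*, 0.48 ± 0.46 for *H2-Ab1*, 0.38 ± 0.47 for *Cd74*, 0.30 ± 0.47 for *H2-Eb1* and -0.25 ± 0.47 for *H2-DMb1*. All but that of *H2-DMa* changed sign without 1 library, which was vehicle replicate 3 for *H2-DMb1* (0.14) and high dose replicate 2 for the others (-0.28 to -0.01).

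Gaps between the members were read within each library. *H2-DMa* minus *H2-Aa*, in log2 CPM, averaged -1.96 ± 0.37 (SD) with vehicle, -2.62 ± 0.52 with the low dose and -3.15 ± 0.36 with the high dose. The widest gap of all 32 libraries, -3.41, was at the high dose. Low and high dose tumours overlapped in this gap (-2.99 to -2.02 and -3.41 to -2.74). *Ciita* minus *H2-Aa* was -4.70 to -4.32 with vehicle, -5.13 to -5.05 with the low dose and -4.30 to -3.93 with the high dose, so that these groups did not overlap. The other experiments did not show the wider low dose gap. Its mean was -4.61 with vehicle and -4.23 with the low dose in the DC-101 experiment, and -5.31 and -5.23 in the anti-PD1 experiment. Over all 32 libraries this gap lay between -6.42 and -3.93. The gaps between classical chains were narrow: *H2-Aa* minus *H2-Ab1* was 0.29 to 0.51 with vehicle, 0.33 to 0.42 with the low dose and, below both, 0.16 to 0.23 with the high dose. Over all 32 libraries it lay between -0.09 and 0.51, and *H2-Aa* minus *H2-Eb1* between 0.21 and 0.73. These differences are given as a description, without a test.

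**Figure D2:**
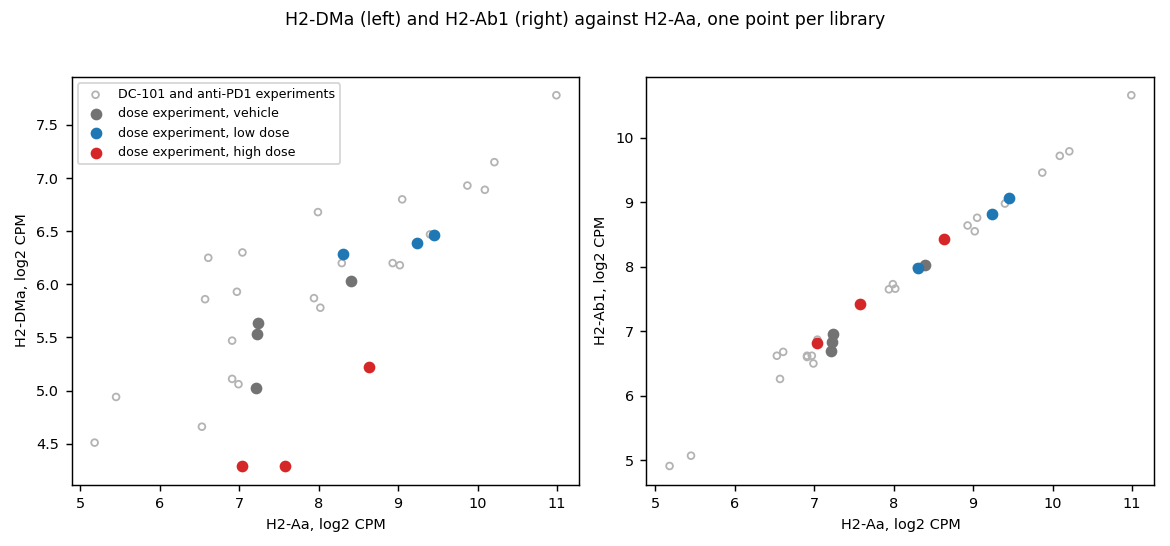
Log2 CPM of *H2-DMa* (left) and *H2-Ab1* (right) on the y axis against *H2-Aa* on the x axis, 1 point per library, with the dose experiment in colour and the other 22 libraries as open circles. The 3 high dose points (4.29 to 5.22 for *H2-DMa*) lie under the other libraries of like *H2-Aa* level on the left, and near the common line on the right. Their gap of *H2-Aa* to *H2-Ab1* (0.16 to 0.23) was smaller than with vehicle (0.29 to 0.51) and the low dose (0.33 to 0.42) in that experiment.

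Genes of other steps of the route were looked at by lists. Of 6 genes for antigen processing, *Ctss* (cathepsin S, which trims the invariant chain) and *Lgmn* (an endosomal protease) fell at the high dose by edgeR and none rose, where 15.6% of all genes were called against vehicle and 4.22% between the doses. *Ctss* changed by -1.49 ± 0.29 on the log2 scale against vehicle (adjusted p = 0.0302) and by -2.13 ± 0.31 against the low dose (adjusted p = 0.0122). *Lgmn* changed by -1.27 ± 0.26 (adjusted p = 0.0314) and by -1.53 ± 0.27 (adjusted p = 0.0237), respectively. Of the 6 tested genes of the interferon gamma route, the receptor chains *Ifngr1* and *Ifngr2* fell at the high dose by edgeR, and none rose, while DESeq2 called 1 of the 6 higher against vehicle. The log2 change was -0.53 ± 0.12 for *Ifngr1* against vehicle (adjusted p = 0.0368) and -0.90 ± 0.15 for *Ifngr2* against the low dose (adjusted p = 0.0179). *March1*, the ubiquitin ligase that removes class II molecules from the surface, changed by -1.08 ± 0.27 on the log2 scale against vehicle (adjusted p = 0.0399) and by -1.83 ± 0.29 against the low dose (adjusted p = 0.0157), the only one of 5 turnover and receptor genes that edgeR called. DESeq2 called 3 of these 5 higher and 1 lower against vehicle, and 2 lower between the doses. *Ifngr2* against vehicle was called in 1 of 7 alternatives and 1 of 7 fits without 1 library. The calls of these genes against vehicle were lost with total count scaling, the replicate block and the hepatocyte score, and did not hold without any single vehicle library, with adjusted p-values of up to 0.192 for *Ctss* and *Lgmn*; between the doses, *Ctss* and *March1* were called in 6 of 7 alternatives and in 4 of 6 fits without 1 library, *Ifngr2* in 5 of 7 and 4 of 6, and *Lgmn* in 5 of 7 and 3 of 6. None of the 7 factors that bind class II promoters and none of the 4 tested other class II chains was called by edgeR in either high dose comparison, and DESeq2 called 1 of these chains lower between the doses.

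Cell type markers shifted in opposite directions at the high dose. Of the macrophage markers, 6 of 9 fell against vehicle and none rose, where 15.6% of all genes were called, and their sum was 579 to 1380 CPM, below the vehicle range of 1520 to 2990. The common leucocyte marker *Ptprc* fell as well, from 6.85 ± 0.17 (SD) log2 CPM with vehicle to 5.70 ± 0.71 (log2 change -1.03 ± 0.30, adjusted p = 0.0484), a call lost with DESeq2 size factors, total count scaling, no filter, the replicate block and the hepatocyte score. Of the T cell markers, 4 of 7 rose and none fell, and their sum was 18.3 to 44.2 CPM, above the vehicle range of 6.74 to 15.6. With total count scaling, the replicate block or the hepatocyte score, 0 of 9 macrophage and 0 of 7 T cell markers were called, and without the filter 2 and 0 were. Without 1 of the libraries at a time, 0 to 6 macrophage markers were called lower and up to 1 higher, and 0 to 7 T cell markers were called higher against vehicle, while 8 of 9 macrophage markers stayed lower and 7 of 7 T cell markers stayed higher each time. Between the doses, where *H2-DMa* was called, 6 of 9 macrophage markers were called lower (median log2 change -2.06 over the 9), also with the hepatocyte score, against 3 with total count scaling, 0 with the replicate block and 1 to 7 without 1 library. Their part in the *H2-DMa* difference was not tested. Of 9 dendritic cell markers, 1 rose (*Ccr7*) and 1 fell (*Itgax*), both named after their values were seen, with 6 of 9 changes positive and a median of 1.47, while the sum was 17.4 to 43.9 CPM against 38.0 to 46.9 CPM with vehicle. Of 5 B cell markers tested, 2 rose, and the summed markers were at 7.98, 62.1 and 2.90 CPM in the 3 high dose tumours, so that replicate 2 held most of that signal. Without 1 library at a time, 0 to 6 B cell markers (of those then tested) were called higher. For the dendritic cell markers, 0 to 5 were then called higher and 0 to 1 lower. The calls of *Ccr7* and of both B cell markers were lost with limma-voom, total count scaling, no filter, the replicate block and the hepatocyte score. That of *Itgax* was lost with the replicate block. Hepatocyte markers summed to 102000, 22200 and 4160 CPM in these tumours, against 1690 to 9110 CPM with vehicle. The part of any of these cells in the class II levels was not tested beyond the fit with a hepatocyte score as a covariate, in which *H2-DMa* changed by -1.73 from the low to the high dose (adjusted p = 0.0246).

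**Figure D3:**
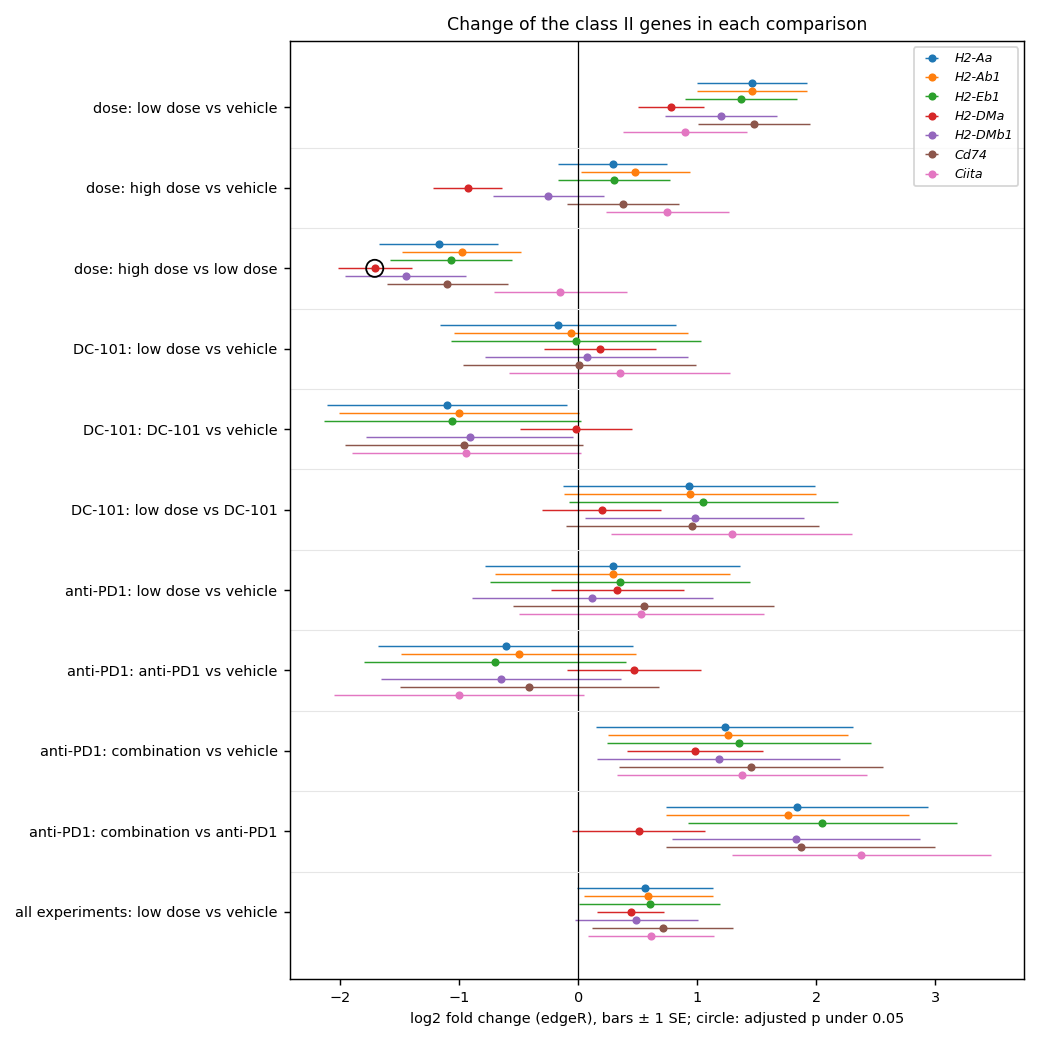
Log2 fold change (x axis) of each class II gene in 11 comparisons (y axis), as edgeR fitted it, with bars of ± 1 SE. The only circled point, at an adjusted p under 0.05, is *H2-DMa* between the high and the low dose (-1.71), and the bars are widest in the DC-101 and anti-PD1 experiments.

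In the DC-101 experiment, the class II levels of the groups overlapped, and no class II gene was called. *H2-Aa* had 5.18, 8.02, 9.40 and 6.99 log2 CPM in the vehicle tumours, 6.97, 8.93 and 6.91 with the low dose and 6.57, 5.45 and 7.94 with DC-101. For this gene the vehicle tumours alone spanned the other groups. For the low dose, the log2 changes of the 7 genes lay between -0.17 ± 0.99 (*H2-Aa*) and 0.35 ± 0.93 (*Ciita*), with adjusted p-values of 0.871 to 0.999, and 4 of all 16138 genes (0.0248%) were called. These values have no clear direction: as differences of mean log2 CPM all 7 were positive, at 0.20 (*H2-Aa*) to 0.59 (*Ciita*). For DC-101 they lay between -1.10 ± 1.01 (*H2-Aa*) and -0.02 ± 0.47 (*H2-DMa*), with adjusted p-values of 0.661 to 0.988. For *H2-Aa* the change was -0.14 without vehicle replicate 3 and -1.97 without DC-101 replicate 3, and without that vehicle tumour *H2-Eb1* was at -0.04 and *Cd74* at -0.03. The low dose minus DC-101 gave positive changes for all 7, from 0.20 ± 0.50 for *H2-DMa* to 1.29 ± 1.01 for *Ciita*, with adjusted p-values of 0.798 to 0.965. Low dose replicate 2 decided that direction, since without it 5 of 7 were negative, *H2-Aa* being at -0.08. In both comparisons with DC-101, edgeR called no gene of all those tested (0.0%), while 2131 against vehicle and 1364 against the low dose had an unadjusted p under 0.05 and DESeq2 called 373 and 203.

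*H2-DMa* in that experiment had 4.51, 5.78, 6.47 and 5.06 log2 CPM with vehicle, 5.93, 6.20 and 5.11 with the low dose and 5.86, 4.94 and 5.87 with DC-101, so its groups overlapped. With DC-101, *H2-DMa* minus *H2-Aa* was -1.10 ± 0.86 (SD), against -1.94 ± 0.95 with vehicle and -1.86 ± 0.85 with the low dose, differences within the spread between tumours. *Ciita* had 0.88, 3.80, 4.50 and 1.97 log2 CPM with vehicle, 2.48, 4.79 and 2.86 with the low dose and 2.21, 1.09 and 3.32 with DC-101. Its lowest and highest values were thus a vehicle and a low dose tumour. Summed T cell markers were 3.03, 13.3, 37.8 and 6.83 CPM in the vehicle tumours, which is the order of their *H2-Aa* levels.

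In the anti-PD1 experiment, the combination had the highest class II levels, without a call. *Cd74*, the invariant chain, had 11.05, 7.42 and 7.90 log2 CPM with vehicle, 10.11, 6.84 and 11.28 with the low dose, 9.21, 8.44 and 9.90 with anti-PD1 and 9.42, 10.96 and 12.05 with the combination. One vehicle tumour, replicate 1, lay within the range of the combination tumours. The log2 changes of the combination against vehicle were 0.98 ± 0.57 (*H2-DMa*) to 1.45 ± 1.11 (*Cd74*), with adjusted p-values of 0.670 to 0.776. Without vehicle replicate 1, all 7 genes had an unadjusted p under 0.05 there, with a smallest adjusted p of 0.255 and a change of 3.33 for *H2-Aa*. Without combination replicate 3, the changes of the 7 genes were 0.29 (*H2-DMb1*) to 0.67 (*Cd74*), with a smallest adjusted p of 0.945. For each gene, all 3 combination tumours were above the vehicle mean.

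Against anti-PD1 alone, the combination was higher in all 7 genes, by most in *Ciita* as edgeR fitted it, again without a call. *Ciita* was at 2.17, 1.63 and 3.13 log2 CPM with anti-PD1 and at 3.16, 4.24 and 5.82 with the combination, groups that did not overlap but lay next to each other. The share of all genes with groups apart in this way was not counted. The log2 change of *Ciita* was 2.38 ± 1.09, with an unadjusted p of 0.0499 and an adjusted p of 0.575 over 16615 genes. Without combination replicate 3 it was 1.36, *H2-Aa* was at 1.03 and *H2-DMa* at 0.00. The classical chains and *Cd74* had changes of 1.76 ± 1.02 (*H2-Ab1*) to 2.05 ± 1.13 (*H2-Eb1*), *H2-DMb1* of 1.83 ± 1.04 and *H2-DMa* of 0.51 ± 0.56. *H2-DMa* was at 6.68, 6.30 and 6.80 log2 CPM with anti-PD1 and at 6.20, 6.93 and 7.78 with the combination, so that these groups overlapped. Low dose regorafenib alone gave 0.12 ± 1.01 (*H2-DMb1*) to 0.55 ± 1.10 (*Cd74*) against vehicle, and anti-PD1 alone gave -1.0 ± 1.05 (*Ciita*) to 0.47 ± 0.56 (*H2-DMa*). The direction for the low dose was not stable: with the hepatocyte score all 7 were negative, and *H2-Aa* ranged from -0.59 (without low dose replicate 3) to 2.37 (without vehicle replicate 1, where 6 of 7 had an unadjusted p under 0.05). EdgeR called no gene in any of the 4 comparisons (0.0% each), with 1362 to 2269 genes at an unadjusted p under 0.05, and DESeq2 called 150 to 614. Against vehicle, the change of anti-PD1 in 5 genes was negative as edgeR fits it, on mean counts, but positive as a difference of mean log2 CPM (*H2-Aa* -0.61 and 0.14, *Cd74* -0.41 and 0.40), so it has no clear direction. T cell markers summed to 29.2 to 73.6 CPM with the combination and 8.14 to 17.2 CPM with anti-PD1, with 4 of 7 higher at an unadjusted p under 0.05 (median change 1.81). So were 10 of 12 hepatocyte markers (median 2.60), 5 of 9 dendritic cell markers (1.30) and 3 of 5 tested B cell markers (1.85), and none was called. The part of these cells in the difference was not tested.

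Over the 3 experiments, low dose regorafenib (9 libraries) was compared with vehicle (11 libraries) with the experiment as a term. All 7 log2 changes were positive, from 0.44 ± 0.28 for *H2-DMa* to 0.71 ± 0.59 for *Cd74*, and stayed positive under every alternative tried and without any single library. Their size rested on single tumours of the anti-PD1 experiment, with *H2-Aa* at 1.11 and *H2-DMb1* at 1.06 without its vehicle replicate 1 and *H2-Aa* at 0.36 without its low dose replicate 3. None was called, with adjusted p-values of 0.476 to 0.699, whereas 276 of 15562 genes were (1.77%). The median was 0.59 over the 7 genes and 0.03 over all genes. *H2-DMa* was above the vehicle mean of its own experiment in 8 of 9 low dose libraries, and *H2-Aa* in 6 of 9. The interaction test, of whether the change differed between the experiments, gave adjusted p-values of 0.917 to 0.997 for the 7 genes. EdgeR called none of the genes in it (0.0%), with 1481 at an unadjusted p under 0.05 and DESeq2 calling 100. The changes of 0.78 to 1.48 in the dose experiment and of -0.17 to 0.35 in the DC-101 experiment (edgeR; 0.20 to 0.59 as differences of mean log2 CPM) are therefore not shown to differ. In this fit *Ifngr2*, an interferon gamma receptor chain, rose by 0.42 ± 0.09 on the log2 scale (adjusted p = 0.0249), a call lost in 5 of 10 alternatives and without low dose replicate 1 or 2 of the dose experiment. Of the markers in this fit, 4 of 7 endothelial ones were called lower (median log2 change -1.17). Called higher were 1 of 9 macrophage and 1 of 12 hepatocyte markers (medians 0.14 and 1.34). None of the T cell, dendritic cell and tested B cell markers was called (medians 0.66, 0.75 and 0.80). The part of these cells in the class II changes was not tested.

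Between tumours of the same group, the class II genes moved as a block. Each library's log2 CPM was taken as its deviation from the mean of its group, so that treatments do not enter. Over 32 libraries, Pearson's r was 0.975 to 0.998 among the 10 pairs of *H2-Aa*, *H2-Ab1*, *H2-Eb1*, *H2-DMb1* and *Cd74*. *Ciita* correlated with these 5 genes at 0.944 to 0.968, and *H2-DMa* with the other 6 at 0.782 to 0.902. These are descriptions over libraries that share groups, and no p is given. The largest deviations were those of vehicle tumours: the mean of the 7 genes deviated by 2.14 in replicate 1 of the anti-PD1 experiment and by -1.97 in replicate 1 of the DC-101 experiment.

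**Figure D4:**
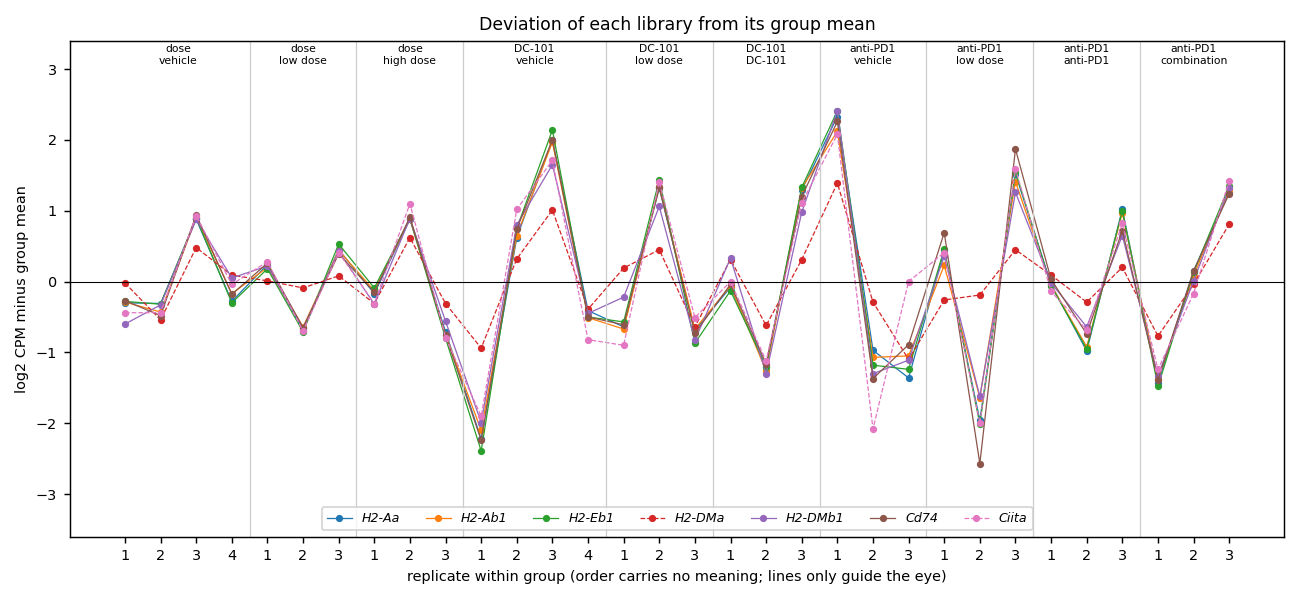
Deviation of each library's log2 CPM from its group mean (y axis) for the 7 class II genes, with libraries along the x axis by group. The lines of 6 genes mostly run together (r 0.944 to 0.998 over all libraries), while *H2-DMa* (dashed red) follows them with a smaller swing. The 6 lines part in some libraries. In vehicle replicate 3 of the anti-PD1 experiment, *Ciita* was at 0.00 and *H2-Aa* at -1.36.

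The genes whose pattern was most like that of the class II mean were ranked by r. Among 15429 genes tested in all 3 experiments the median r was 0.0338, and the 10 non-member genes with the highest r are named. *H2-Ea-ps* (r = 0.974), annotated as a pseudogene of the I-E alpha chain in the reference strain, and *H2-DMb2* (r = 0.955), the paralog of *H2-DMb1*, came first. *Slamf8* (0.950), a receptor of myeloid cells, and *Grap2* (0.936), an adaptor of T cell receptor signalling, followed. Then came *Cd3e* (0.935) and *Trac* (0.931), parts of the T cell receptor complex, *Ipcef1* (0.913), *Ebi3* (0.913), a cytokine subunit, *Cxcl9* (0.910), a chemokine induced by interferon gamma, and *Cd6* (0.90), a T cell surface protein. For these 10, Spearman's rho was between 0.877 and 0.968. Without the 2 libraries whose class II mean deviated most, r was between 0.870 and 0.965.

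Lists of genes were set beside the class II mean in the same way. The mean of the 7 genes of the interferon gamma route gave r = 0.935 (rho 0.942, and 0.915 without the 2 most extreme libraries). The 7 T cell markers gave r = 0.908 (rho 0.910) and the 9 dendritic cell markers 0.678 (rho 0.672), single markers ranging from -0.0422 (*Cd209a*) to 0.821 (*Xcr1*). The 9 macrophage markers gave 0.447 (rho 0.490) and the 7 B cell markers 0.331 (rho 0.341). Kupffer cell markers (0.0193), endothelial markers (0.181) and hepatocyte markers (0.129) had a low r over all 32 libraries, but not in each experiment: in the dose, the DC-101 and then the anti-PD1 experiment it was 0.316, 0.41 and -0.574 for hepatocyte markers, 0.567, -0.152 and 0.426 for endothelial markers, and 0.448, 0.0693 and -0.29 for Kupffer cell markers. Within each experiment (dose, then DC-101, then anti-PD1), r was 0.827, 0.965 and 0.893 for the T cell markers and 0.705, 0.396 and 0.456 for the macrophage markers. Of single members, *H2-DMa* had the highest r with the macrophage markers, 0.653 (rho 0.710), against 0.369 to 0.451 for the other 6. It had the lowest with the dendritic cell markers, 0.469, against 0.654 to 0.754. *H2-DMa* itself had a higher r with the T cell markers (0.871) and the interferon gamma route (0.873) than with the macrophage markers.

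**Figure D5:**
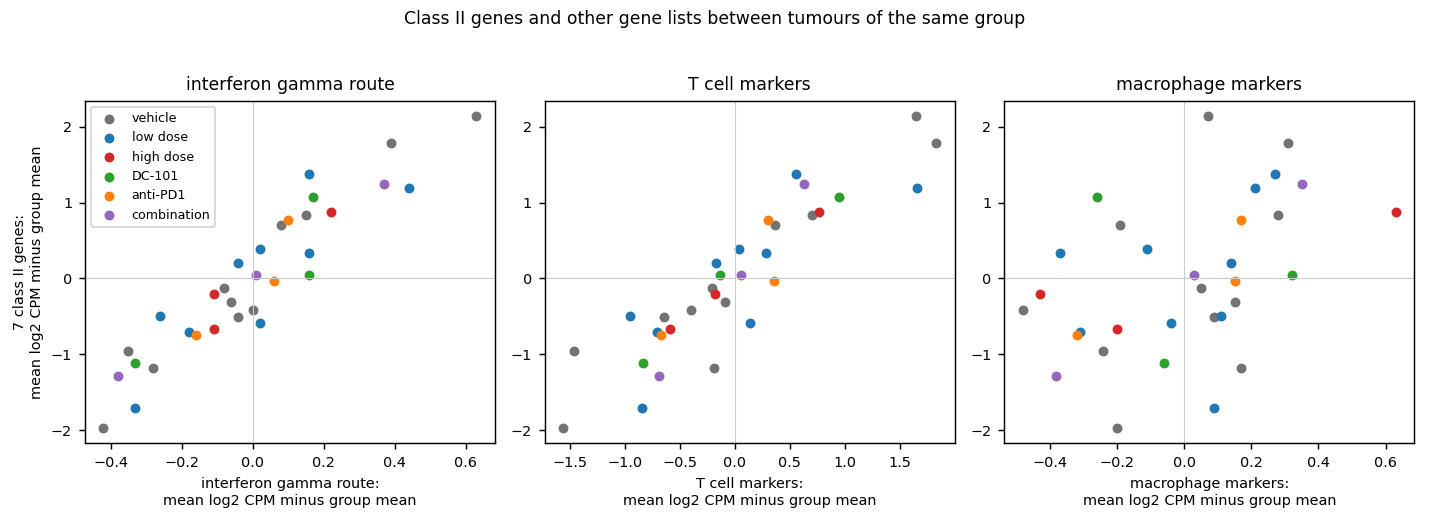
Mean deviation of the 7 class II genes (y axis, log2 CPM minus group mean) against that of the interferon gamma route, the T cell markers and the macrophage markers (x axes), 1 point per library, coloured by treatment. The points lie along a line for the first 2 lists (r = 0.935 and 0.908) and scatter for the macrophage markers (r = 0.447).

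A few features of the counts bear on these values. The *H2-DMa* gene model overlaps *Brd2* on the other strand, and 360 of its 3448 exon bases (10.4%) are also exon of *Brd2*. Since the strand setting of the counting was not stated, reads of that stretch could be affected. *Brd2* had 3241 to 10100 counts and changed by -0.17 ± 0.12 on the log2 scale from the low to the high dose (adjusted p = 0.340), against -1.71 for *H2-DMa*. *Ciita* shares 329 of its 9535 exon bases (3.45%) with *Dexi* on the other strand, which had 155 to 494 counts, so the lowest *Ciita* counts are less certain. *Gm20513*, which overlaps *H2-Eb1* on the other strand, had 0 to 5 counts. Class II genes are among the most variable between mouse strains, and reads of BALB/c tumours were aligned to the C57BL/6 reference, so reads could be lost in the same way in all libraries.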

How the data were processed

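Counts per gene were used as the authors deposited them: reads of a stranded mRNA library were trimmed with cutadapt 2.4, aligned to GRCm38 with STAR 2.7.2a and counted per gene of Gencode M19, per the labels and the study's methods, without normalization. Gene symbols were matched for 54409 of 54446 identifiers, and exon lengths came from Gencode M21. Groups came from the sample labels. Genes passing filterByExpr of edgeR 4.0.16 (minimum count 10, minimum total 15) were scaled by TMM and fitted per experiment with all its groups, by the robust quasi-likelihood F-test (2-sided) in R 4.3.3, with Benjamini-Hochberg adjustment over all genes tested and a threshold of 0.05. The low dose was also fitted over all 3 experiments. Log2 CPM used a prior count of 2. Fold changes from edgeR compare fitted mean counts and can differ from differences of mean log2 CPM. The 7 genes, the 13 further gene lists and the rule for named genes were chosen with earlier results of these data known. Named are the 7 members, genes of 5 pathway lists past the threshold (at most the 4 with the largest changes per comparison), marker lists as counts and sums, and the 10 genes most like the members' mean deviation. DESeq2 1.42.0, limma-voom 3.58.1, other scalings, no filter, a replicate block, a hepatocyte score and leaving out libraries or experiments were the alternatives. The code was tested on simulated data. Same-group libraries were no duplicates (chi-square per degree of freedom 14.0 to 918 over 36 pairs). Same-numbered libraries deviated together (r over 0.1) in 12 of 36 pairs, so numbers were not taken as pairs.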

Additional observations from a re-analysis of the deposited data

Results flagged for a closer look

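Vehicle replicate 3 of the dose experiment stood far from the other 3 vehicle tumours in *H2-Aa*, at 8.40 log2 CPM (a gap of 0.974 of the group's range), and in *H2-Eb1*, at 8.01 (0.961 of the range), both beyond Dixon's critical value for 4 samples. The 14 cases tested were the 7 genes in the 2 groups of 4 tumours, so they are not independent; chance alone gives about 1 in 20, and both that passed come from the same tumour and from genes that move together. Its summed T cell markers were also the highest of the group, at 15.6 CPM against 6.74 to 8.81 CPM, and their part in the class II level was not tested. Without it, the log2 change of *H2-Aa* at the low dose was 1.86.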

How the results depend on the processing

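The direction of the 7 genes held under all alternative fits and without any single library in the low dose comparison of the dose experiment, in both comparisons of the combination and in the fit over 3 experiments; none of these was called in any of them. Over all comparisons, members and alternatives, 1244 of 1337 values kept direction and side of the threshold, 85 changed sign, 3 passed the threshold and 5 no longer did. The call of *H2-DMa* between the doses (log2 change -1.71) was lost with total count scaling (-1.83) and with the replicate block (-1.72), and its range without 1 library was -2.10 to -1.55. DESeq2 called *H2-DMa* against vehicle at the high dose (-0.90, adjusted p = 0.0179) and *H2-DMb1* between the doses (-1.44, adjusted p = 0.0401). Scaling by total counts moved the median of all genes from 0.02 to -0.13 for the high dose against vehicle and from 0.07 to -0.09 between the doses. The spread between 3 or 4 tumours a group limits these values; the cause of the changes listed here was not tested unless fewer libraries or genes show it.

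Numbers of genes called moved as follows. DESeq2 called 85, 5275 and 3059 genes in the 3 dose comparisons (low dose against vehicle, high dose against vehicle, high against low), 1097, 373 and 203 in the 3 DC-101 comparisons (low dose against vehicle, DC-101 against vehicle, low dose against DC-101), 425, 614, 150 and 210 in the 4 anti-PD1 comparisons (low dose, anti-PD1 and combination against vehicle, combination against anti-PD1), 892 in the fit over 3 experiments and 100 in its interaction. Limma-voom called 1332 for the high dose against vehicle. Total count scaling gave 282 for it and 198 between the doses. Without the filter the counts were 416 and 309, then 12 for the low dose in the DC-101 experiment, 10 for it and 1 for the combination in the anti-PD1 experiment, and 153 over 3 experiments. With the hepatocyte score they were 3 for the low dose and 185 for the high dose against vehicle, 0 for the low dose in the DC-101 experiment, and 10, 1 and 8 for the low dose, anti-PD1 and the combination against vehicle. Over 3 experiments, 63 were called without the dose experiment and 17 without the DC-101 experiment. Numbers did not pair the libraries; with the replicate block 1 gene was called in each high dose comparison, 0 in the low dose comparison of the DC-101 experiment and 178 over 3 experiments, and *H2-Aa*, *H2-Ab1* and *H2-Eb1* at the low dose of the DC-101 experiment turned to 0.16, 0.22 and 0.34. Without 1 library, the counts ranged from 15 (vehicle replicate 3) to 7030 (high dose replicate 3) for the high dose against vehicle, from 62 (low dose replicate 1) to 4488 (high dose replicate 3) between the doses, from 158 to 313 over 3 experiments and from 0 to 2 in the interaction, and were 0 for the low dose of the DC-101 experiment.

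Changes of sign were all in values that were not called. Limma-voom gave 0.20, 0.28 and 0.40 for *H2-Aa*, *H2-Ab1* and *H2-Eb1* at the low dose and 0.10 for *H2-DMa* with DC-101 in the DC-101 experiment, and 0.15, 0.13, 0.14, 0.26 and 0.41 for *H2-Aa*, *H2-Ab1*, *H2-Eb1*, *H2-DMb1* and *Cd74* with anti-PD1. Without the filter, *Cd74* at the low dose was at -0.01 and *H2-DMa* with DC-101 at 0.01. With the hepatocyte score, *H2-Aa* and *H2-Eb1* at the high dose against vehicle were at -0.08 and -0.15. For the low dose with that score, *H2-DMa*, *H2-DMb1*, *Cd74* and *Ciita* were at -0.04, -0.24, -0.36 and -0.01 in the DC-101 experiment. In the anti-PD1 experiment the 7 genes, in the order of the opening, were at -1.54, -1.44, -1.53, -0.25, -1.44, -1.44 and -1.26, and *H2-DMa* with anti-PD1 was at -0.33.

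Without 1 library, ranges that crossed 0 or the threshold were as follows. High dose against vehicle: *H2-Aa* -0.28 to 0.68, *H2-Ab1* -0.08 to 0.88, *H2-Eb1* -0.26 to 0.71, *H2-DMa* -1.30 to -0.75, *H2-DMb1* -0.84 to 0.14, *Cd74* -0.20 to 0.81 and *Ciita* -0.01 to 1.17. Between the doses, *Ciita* ranged from -0.93 to 0.15. Low dose in the DC-101 experiment: *H2-Aa* -1.14 to 0.79, *H2-Ab1* -1.05 to 0.88, *H2-Eb1* -1.10 to 1.01, *H2-DMa* -0.06 to 0.61, *H2-DMb1* -0.64 to 0.76, *Cd74* -0.97 to 0.94 and *Ciita* -0.70 to 1.05. With DC-101, *H2-DMa* ranged from -0.26 to 0.41. Low dose against DC-101: *H2-Aa* -0.08 to 1.80, *H2-Ab1* -0.09 to 1.82, *H2-Eb1* -0.08 to 1.96, *H2-DMa* -0.08 to 0.45 and *Cd74* -0.05 to 1.74. Low dose in the anti-PD1 experiment: *H2-Aa* -0.59 to 2.37, *H2-Ab1* -0.59 to 2.13, *H2-Eb1* -0.55 to 2.55, *H2-DMa* -0.07 to 1.32, *H2-DMb1* -0.61 to 2.33, *Cd74* -0.47 to 2.54 and *Ciita* -0.42 to 2.05. With anti-PD1: *H2-Aa* -1.27 to 1.50, *H2-Ab1* -1.12 to 1.36, *H2-Eb1* -1.35 to 1.54, *H2-DMb1* -1.14 to 1.59, *Cd74* -0.89 to 1.61 and *Ciita* -1.53 to 0.56.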
